A study of Mus musculus with 8 samples.

Results

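The 10 genes described here encode ligands, receptors and inhibitors of myostatin, activin and TGF-beta signalling: Mstn, Gdf11, Inhba, Tgfb1, Tgfb2, Tgfb3, Acvr2a, Acvr2b, Fst and Smad7. They were chosen by gene name, with earlier results of these data known, and are 10 of the 53647 genes counted. Their RNA was measured by poly(A) RNA sequencing in wild-type (WT) mouse primary myotubes, the multinucleated fibres that cultured muscle precursor cells form when they fuse. The precursor cells came from limb muscle of pups 2 to 3 days old and were differentiated in medium with 5% horse serum. The 4 groups were untreated controls and myotubes given interleukin 6 (IL6), leukaemia inhibitory factor (LIF) or oncostatin M (OSM), each at 250 ng/ml for 48 h. All cultures were harvested 72 h after differentiation, so they model young fibres without nerve or blood supply. There were 2 libraries per group, and the labels do not say whether these are separate animals, litters or dishes, so p-values measure the spread between these libraries only, which may be technical.

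Ligands of this family are secreted as precursors, cut by proteases, and held inactive by their own prodomains or by binding proteins until released. Released ligand joins a type II receptor (Acvr2a or Acvr2b for myostatin and activins, Tgfbr2 for TGF-beta) to a type I receptor, which phosphorylates SMAD proteins that enter the nucleus. In skeletal muscle, myostatin and activin A are known as brakes on fibre size, and follistatin, which traps them, as a promoter of growth. IL6, LIF and OSM signal through a different route, the shared receptor subunit gp130 and JAK kinases.

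Each library held between 29482077 and 30025471 counts assigned to genes. Replicates of a group correlated at 0.992 to 0.995 (Pearson r across tested genes on the log2 scale), and the labels name no batch. Summed myotube markers were high in every library, at 23337 to 24225 CPM (counts scaled to a common library size) in control, 19966 to 22736 with IL6, 20695 to 21923 with LIF and 20302 to 20452 with OSM. The log2 change of each of these 8 markers was below 0 with OSM and with LIF. Mybph was called lower with OSM (-0.32, adjusted p 0.00621) and LIF (-0.41, adjusted p 0.00329). Myh8 was too (-0.20, adjusted p 0.0447, and -0.24, adjusted p 0.0385), and the rest of the list was called with neither. In the GENCODE M21 annotation, 49.9% of the Mybph exon bases overlap Adora1 on the opposite strand. Of the 50-base stretches of the longest Myh8 transcript, 21.4% also occur in other genes, such as Myh1, Myh2 and Myh4. The summed myoblast markers were 1252 to 1331 CPM in control, 1729 to 1833 with LIF and 1540 to 1584 with OSM, and most of that sum was Des, which myotubes also express (means of 1017, 1490 and 1251 CPM). Of the other 4, Pax7 and Myf5 rose with OSM, and Myod1 and Cdh15 were called with neither cytokine. Of 8 fibroblast markers, Lum and Tcf21 had no count and Thy1 and Dpt stayed under 1 CPM. Of 6 macrophage markers, Adgre1, Csf1r, Ptprc and Fcgr1 stayed under 1 CPM. Of 5 endothelial markers, all but Cdh5 did so. The summed fibroblast list was 73.9 to 84.4 CPM in control, 106 to 107 with LIF and 116 to 126 with OSM. Its members differed: with OSM Ly6a rose from a mean of 35.0 to 88.9 CPM and Pdgfra by 0.53 on the log2 scale, while Pdgfrb fell from 32.3 to 16.5 CPM (adjusted p 0.0110) and Col15a1 was not called. The macrophage list summed to 2.57 to 2.85 CPM in control and 5.10 to 5.37 with OSM. Most of that rise was Cd68, from a mean of 1.98 to 4.05 CPM (adjusted p 0.00186), and Itgam was not called (adjusted p 0.418). The part of these shifts in the results was not tested.

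The members' places in the pathway came with very different levels. CPM scaled by trimmed means (TMM) and divided by exon length put Tgfb3 first in control, at 69.3 CPM per kb. Gdf11 followed at 25.7, Fst at 24.4, Acvr2a at 14.2, Tgfb1 at 9.63, Smad7 at 6.75, Tgfb2 at 3.88, Mstn at 2.48, Acvr2b at 1.05 and Inhba at 0.401 CPM per kb. Thus TGF-beta 3 was the most abundant ligand transcript, and the activin A subunit gene was the least abundant member. With the longest transcript as the length, Fst moved to 38.3 and Tgfb1 to 18.9 CPM per kb in control, above Gdf11 and Acvr2a respectively. Gdf11 and Fst did not differ beyond their spread in control.

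**Figure D1:**
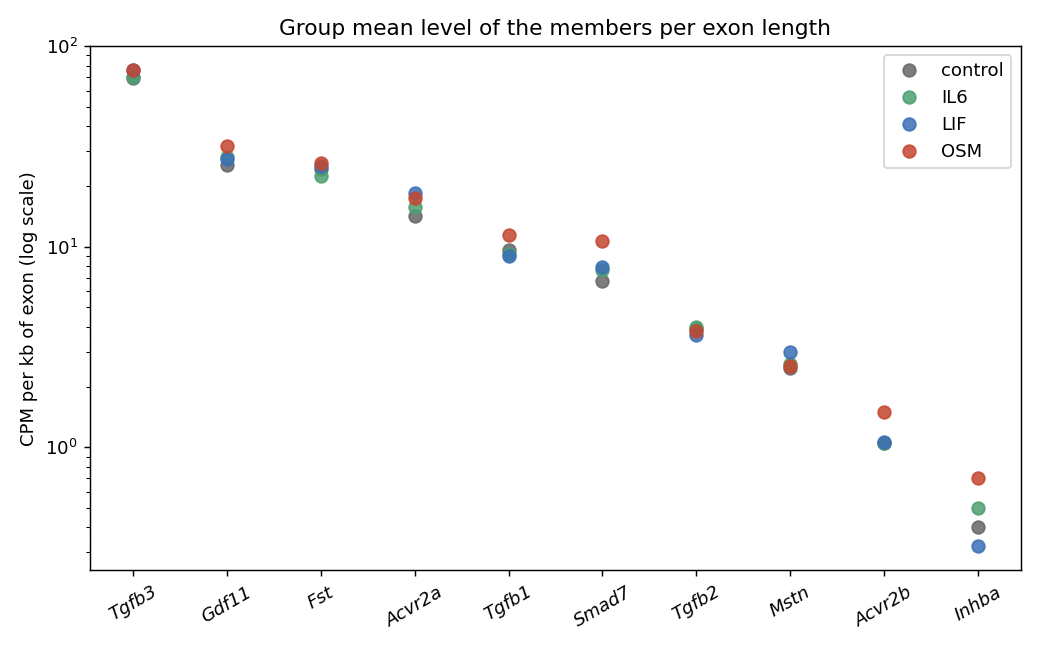
Group mean level of each member in CPM per kb of exon (log axis) in the 4 groups of 2 libraries, ordered by the control level. Tgfb3 is the highest at 69.3 CPM per kb in control and Inhba the lowest at 0.401, and the range over genes is wider than that over the 4 groups for every gene.

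Across the 10 members, OSM raised Inhba, Tgfb1, Acvr2a and Smad7, and LIF raised Acvr2a. A gene was called at a Benjamini-Hochberg adjusted p under 0.05 in edgeR's quasi-likelihood test over 15603 genes, and all 10 members passed the filter on low counts. With OSM, 4 of 10 members were called, all higher, where 21.4% of all tested genes were called with 10.8% higher and 10.6% lower. In 7 of 10 members both OSM libraries lay above both control libraries, as in 29.9% of all genes. With LIF 1 of 10 was called, where 7.66% of all genes were, 4.2% higher and 3.46% lower. With IL6 0 of 10 were called, where 0% of all genes were, and DESeq2, which called 19 genes with IL6, called no member either. DESeq2 gave no adjusted p for Inhba and Acvr2b with IL6, so it could not call them. At an unadjusted p under 0.05 IL6 gave 1 member, Acvr2a, and 795 genes of all, where 780 would be expected by chance. The median log2 change over the 10 members was 0.27 with OSM, 0.07 with LIF and 0.05 with IL6, where the medians of all tested genes were -0.003, -0.008 and 0.001. The 3 comparisons share their control libraries. The OSM count was 1 without control replicate 1, 2 without OSM replicate 1 and 1 without OSM replicate 2, and the LIF count was 0 without LIF replicate 2 and 2 without control replicate 2.

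**Figure D2:**
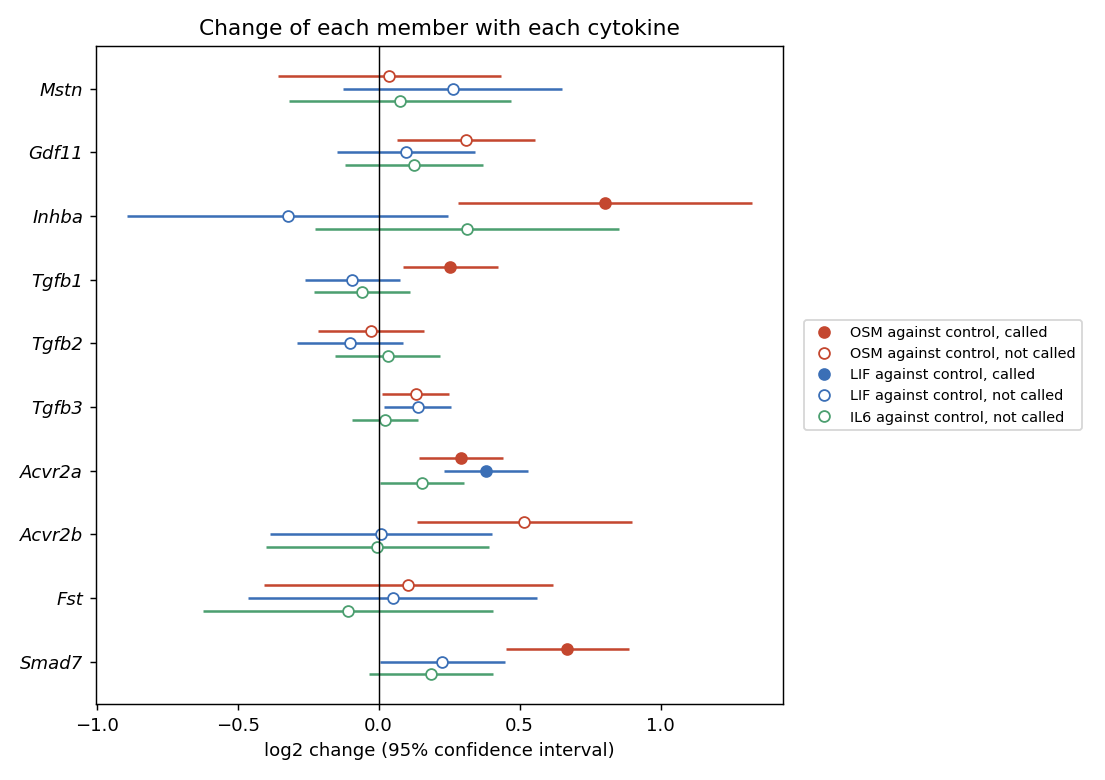
Log2 change of each member against control with OSM, LIF and IL6 (points), with 95% confidence intervals of the fit to all 8 libraries; filled points were called. Filled points stand for Inhba, Tgfb1, Acvr2a and Smad7 with OSM and for Acvr2a with LIF, and each lies right of 0.

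The promoters of 3 members that rose with OSM are shown beside that of Mstn, a member that was not called with OSM. Whether Mstn responded differently from these 3 was not tested. Each window runs from 250 bases before to 50 bases after the transcript start in the RefSeq table (GRCm38.p6), and 7 of the 10 members matched an entry. Smad7, the other member that rose with OSM, had no entry, nor did Tgfb3 and Fst, so their promoters were not searched. Capitals mark CAGACA or its reverse complement TGTCTG, a short motif bound by SMAD3 and SMAD4. The other motif searched, TTCNNNGAA, the core that STAT proteins bind, reads the same on either strand and cannot overlap CAGACA.

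Inhba, chr13:16011601-16011900, plus strand: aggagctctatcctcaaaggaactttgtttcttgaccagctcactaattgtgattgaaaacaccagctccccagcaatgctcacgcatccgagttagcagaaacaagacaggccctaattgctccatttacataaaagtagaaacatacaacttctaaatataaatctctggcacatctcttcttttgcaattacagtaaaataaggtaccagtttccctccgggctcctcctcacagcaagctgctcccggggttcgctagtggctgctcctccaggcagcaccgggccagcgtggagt

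Tgfb1, chr7:25686752-25687051, plus strand: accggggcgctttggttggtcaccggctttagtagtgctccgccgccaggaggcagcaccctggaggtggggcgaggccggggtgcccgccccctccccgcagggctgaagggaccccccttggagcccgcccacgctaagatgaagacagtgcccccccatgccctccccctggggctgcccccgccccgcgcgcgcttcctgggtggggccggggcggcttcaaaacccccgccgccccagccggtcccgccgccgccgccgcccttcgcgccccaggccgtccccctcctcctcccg

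Acvr2a, chr2:48813859-48814158, plus strand: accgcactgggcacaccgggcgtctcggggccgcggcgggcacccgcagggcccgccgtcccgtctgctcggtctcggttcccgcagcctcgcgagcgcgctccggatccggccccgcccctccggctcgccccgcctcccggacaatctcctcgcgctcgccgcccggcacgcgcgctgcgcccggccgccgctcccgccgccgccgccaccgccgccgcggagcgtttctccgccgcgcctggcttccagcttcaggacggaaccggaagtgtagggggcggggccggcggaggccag

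Mstn, chr1:53061390-53061689, plus strand: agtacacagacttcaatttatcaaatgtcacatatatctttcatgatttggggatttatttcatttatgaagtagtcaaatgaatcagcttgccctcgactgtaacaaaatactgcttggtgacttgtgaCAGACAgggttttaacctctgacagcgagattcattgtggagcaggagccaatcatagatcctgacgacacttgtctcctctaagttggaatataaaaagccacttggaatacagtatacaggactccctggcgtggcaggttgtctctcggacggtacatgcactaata

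Inhba, Tgfb1 and Acvr2a had neither motif in these windows. The windows of Gdf11 and Acvr2b, which were not called with OSM and are not shown, also had neither. None of the members' windows searched held TTCNNNGAA. That motif was found in 8.3% of the 32851 promoter windows in the table. CAGACA was found once in the Mstn window, starting 120 bases before the start, and once in that of Tgfb2, 204 bases before it, against 21% of all windows. A match is a description of letters only, and other parts of these genes were not searched.

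Among the ligands, Mstn encodes myostatin, which skeletal muscle makes and which limits muscle mass. Its CPM was 5.56 and 7.86 in the control libraries, 7.54 and 6.61 with IL6, 7.03 and 9.08 with LIF, and 6.40 and 7.38 with OSM. The control libraries lay further apart than the IL6 or OSM libraries did, and the groups overlapped in every pair. The fitted log2 change was 0.04 with OSM (95% interval -0.36 to 0.43, adjusted p 0.913). With LIF it was 0.26 (-0.13 to 0.65, adjusted p 0.470), and IL6 gave 0.08 (-0.32 to 0.47, adjusted p 0.987). No neighbours in the order control, OSM, IL6, LIF differed beyond their spread. The upper end of the OSM interval allows a rise of 0.43, so a modest change was not detectable at 162 to 271 counts per library.

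Gdf11 encodes the close relative of myostatin, which uses the same type II receptors. It stood at 88.9 and 119.6 CPM in control, 114.5 and 113.0 with IL6, 110.8 and 112.3 with LIF, and 135.3 and 123.2 with OSM. The OSM libraries were above all others, while control replicate 1 was the lowest of the 8. The log2 change with OSM was 0.31 (SE 0.11, 95% interval 0.07 to 0.56) and was not called (adjusted p 0.0736). It was called with DESeq2 (adjusted p 0.0298), without a filter on low counts (0.000157) and without control replicate 2 (0.000186). Against LIF the OSM level was higher by 0.21 and against IL6 by 0.18, and neither was called (adjusted p 0.320 in each). The difference from LIF was called in 4 of 13 alternatives, among them a fit of these 2 groups alone (adjusted p 0.00413).

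Inhba encodes the inhibin beta A subunit, whose dimer is activin A. Its CPM was 2.47 and 2.65 in control, 4.10 and 2.26 with IL6, 2.19 and 1.91 with LIF, and 4.52 and 4.43 with OSM. The OSM libraries were the highest and the LIF libraries the lowest, and the IL6 libraries fell on either side of control. OSM raised Inhba 1.74-fold (log2 change 0.80, SE 0.24, adjusted p 0.0308). OSM also exceeded LIF by 1.13 (SE 0.25, adjusted p 0.0122), where the LIF change against control was -0.32 (95% interval -0.89 to 0.25, adjusted p 0.560). These rest on 57 to 132 counts per library. The OSM call was lost in 6 of the 8 fits without 1 library, with adjusted p up to 0.154, and the OSM to LIF call in 4 of 8, with adjusted p up to 0.132. OSM and IL6 did not differ in the test (0.49, adjusted p 0.194), but without IL6 replicate 1 the difference was 0.99 (adjusted p 0.00910).

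Tgfb1 encodes TGF-beta 1, the isoform best known for driving matrix production. It was at 46.3 and 50.8 CPM in control, 45.3 and 47.9 with IL6, 42.7 and 48.3 with LIF, and 58.6 and 57.2 with OSM. The OSM libraries were close together and above all others, and the other 3 groups overlapped. OSM raised it 1.19-fold over control (log2 change 0.25, SE 0.08, adjusted p 0.0326), and it was higher with OSM than with LIF by 0.35 (adjusted p 0.0132) and than with IL6 by 0.31 (adjusted p 0.0143). The LIF and IL6 changes were -0.09 and -0.06 (adjusted p 0.577 and 0.959). The OSM call was lost without control replicate 1 (adjusted p 0.195) and without OSM replicate 1 (0.180) or 2 (0.113). The call against LIF was lost without LIF replicate 1 (adjusted p 0.254) or OSM replicate 1 (0.148) or 2 (0.0807), and that against IL6 without IL6 replicate 1 (0.0524) or OSM replicate 1 (0.119) or 2 (0.0734).

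The other two TGF-beta genes were not called with any cytokine. Tgfb2 had 21.8 and 23.2 CPM in control, 22 and 23.98 with IL6, 20.7 and 21.2 with LIF, and 21.6 and 22.6 with OSM. Its log2 change with OSM was -0.03 (95% interval -0.21 to 0.16, adjusted p 0.867), and LIF and IL6 gave -0.10 and 0.03 (adjusted p 0.580 and 0.988). Tgfb3 had 235.7 and 233.5 CPM in control, 236.1 and 240.6 with IL6, 254.8 and 261.5 with LIF, and 258.5 and 255.7 with OSM. The LIF and OSM libraries lay above all control and IL6 libraries, yet the changes of 0.13 with OSM (95% interval 0.01 to 0.25, adjusted p 0.11) and 0.14 with LIF (0.02 to 0.26, adjusted p 0.167) were not called. In GENCODE M21, 12.4% of the Tgfb3 exon bases overlap other genes on the opposite strand, and the strand setting of the counting is not given in the sources used here.

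**Figure D3:**
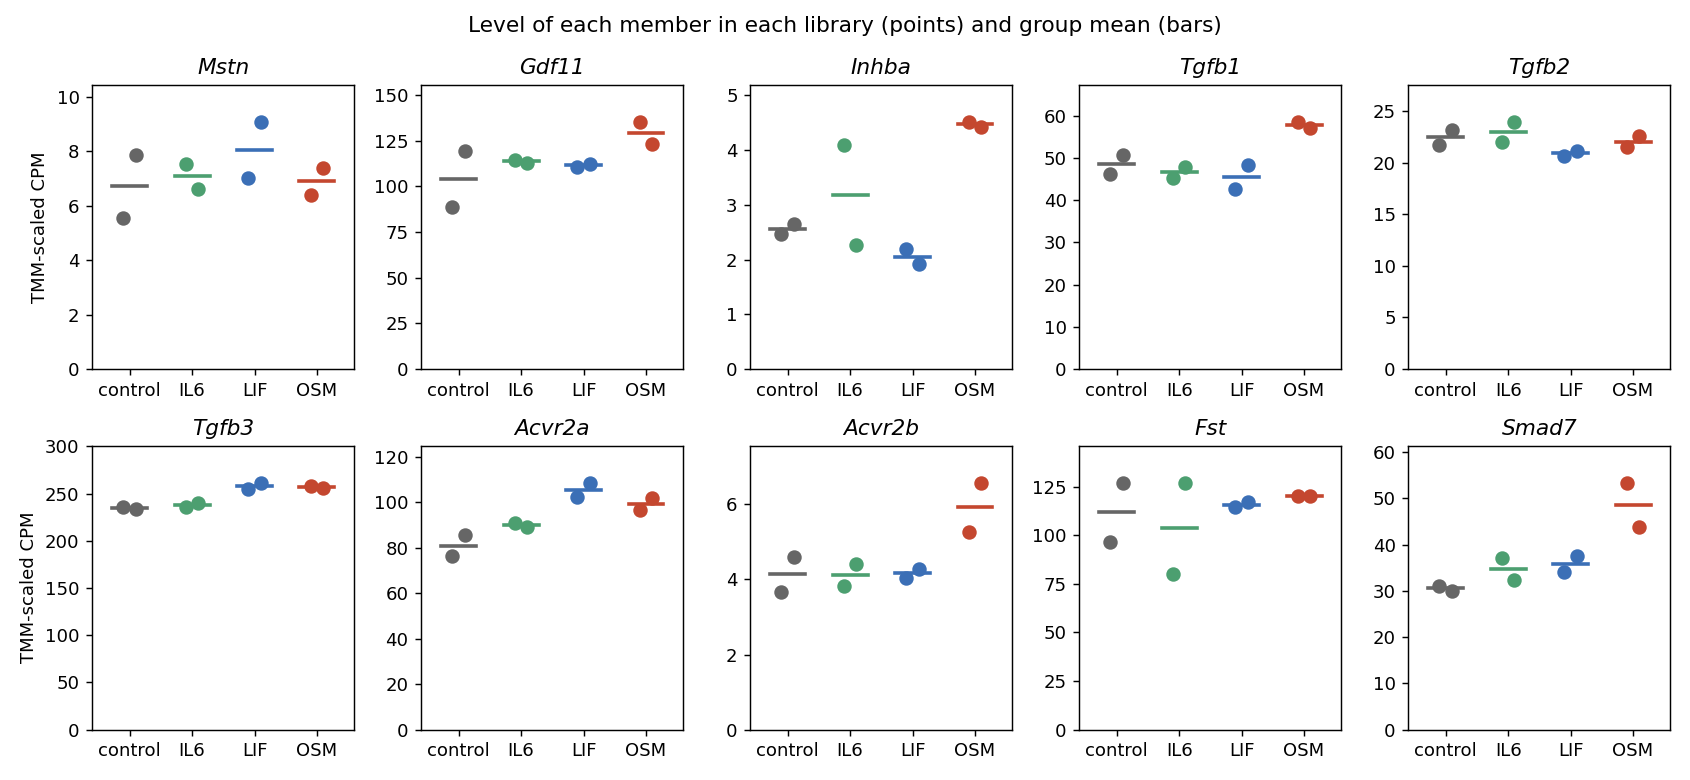
TMM-scaled CPM of each member in each of the 8 libraries (points) with the group mean (bars), 1 panel per gene, each axis from 0. The OSM libraries lie above all control libraries for Gdf11, Inhba, Tgfb1, Tgfb3, Acvr2a, Acvr2b and Smad7, while Mstn, Tgfb2 and Fst overlap control.

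Of the type II receptors, Acvr2a was the member that LIF raised. Its CPM was 76.5 and 85.5 in control, 90.9 and 89.1 with IL6, 102.3 and 108.6 with LIF, and 96.5 and 102.0 with OSM. Every cytokine library was above both control libraries, and the LIF libraries were the highest. The log2 change was 0.38 with LIF (SE 0.07, adjusted p 0.00434), a 1.30-fold rise, and 0.29 with OSM (SE 0.07, adjusted p 0.00816), a 1.23-fold rise. LIF and OSM did not differ in the direct test (OSM minus LIF -0.09, 95% interval -0.23 to 0.06, adjusted p 0.545). With IL6 the change was 0.15 (95% interval 0.003 to 0.30, adjusted p 0.943). LIF against IL6 gave 0.23 (adjusted p 0.108, and 0.0403 with the replicate number as a block). The OSM call was lost without control replicate 1 (adjusted p 0.0775) and without OSM replicate 2 (0.0910), and the LIF call without LIF replicate 2 (0.0900). In M21, 7.84% of its exon bases overlap Orc4 on the opposite strand.

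Acvr2b encodes the type II receptor with the higher known affinity for myostatin. It was at 3.67 and 4.6 CPM in control, 3.84 and 4.42 with IL6, 4.04 and 4.29 with LIF, and 5.27 and 6.58 with OSM. Only the OSM libraries of the 8 exceeded 5 CPM. The OSM change of 0.52 (SE 0.18, 95% interval 0.14 to 0.90) narrowly missed the threshold (adjusted p 0.0532), and was called in 5 of 13 alternatives, among them the replicate block (adjusted p 0.0220). LIF and IL6 gave 0.01 and -0.004 (adjusted p 0.992 and 1). OSM exceeded LIF by 0.51 (adjusted p 0.105, and 0.0473 with the replicate block) and IL6 by 0.52 (adjusted p 0.0636, and 0.0266 with the block).

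Of the inhibitors, Fst encodes follistatin, which binds activins and myostatin outside the cell. It had 96.5 and 127.0 CPM in control, 80.3 and 126.9 with IL6, 114.4 and 117.1 with LIF, and 120.4 and 120.1 with OSM. Replicate 1 was far below replicate 2 in control and IL6, while the LIF and OSM replicates nearly coincided. The changes were 0.10 with OSM (95% interval -0.41 to 0.62, adjusted p 0.785), and 0.05 and -0.11 with LIF and IL6 (adjusted p 0.937 and 0.979), and none was called in any of the 13 alternatives. Between OSM and IL6 the change was 0.21 (adjusted p 0.596), and it was called without IL6 replicate 2 (0.58, adjusted p 0.0170).

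Smad7 encodes the inhibitory SMAD that blocks type I receptors and is itself a known target of TGF-beta. It had 31.1 and 29.95 CPM in control, 37.0 and 32.4 with IL6, 34.0 and 37.4 with LIF, and 53.4 and 43.8 with OSM. The OSM libraries were above all others, though further from each other than any other pair. OSM raised it 1.59-fold (log2 change 0.67, SE 0.10, adjusted p 0.000371), and this call held in all 13 alternatives, with adjusted p up to 0.0103. It was the smallest p of the 10 members with OSM. OSM exceeded LIF by 0.44 (adjusted p 0.0142) and IL6 by 0.48 (adjusted p 0.00485). The call against LIF was lost without LIF replicate 1 (adjusted p 0.205), LIF replicate 2 (0.05) or OSM replicate 1 (0.248), and that against IL6 without OSM replicate 1 (0.0980). With LIF the change was 0.23 (95% interval 0.01 to 0.45, adjusted p 0.230), that with IL6 was 0.19 (adjusted p 0.943), and LIF minus IL6 was 0.04 (adjusted p 0.917).

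The genes whose log2 CPM followed Smad7 most closely over the 8 libraries, among the 10907 protein-coding genes averaging 100 counts or more, were Msl3 (Pearson r 0.987), Btd (0.981), Ptpn1 (0.980), Basp1 (0.979) and Tnfrsf23 (0.977). Ptpn1 encodes a tyrosine phosphatase that dampens JAK signalling. Its mean CPM was 45.2 in control, 48.2 with IL6, 49.9 with LIF and 63.7 with OSM. These r values describe 8 libraries that share their groups and normalization.

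Direct tests between cytokines called 3 of 10 members for OSM against LIF (Inhba, Tgfb1 and Smad7), all higher with OSM, where 8.04% of all genes were called and 4.01% were higher. For OSM against IL6 they called 2 of 10 (Tgfb1 and Smad7), both higher, where 15.5% of all genes were called and 8.02% were higher. For LIF against IL6 they called 0 of 10 with edgeR, where 2.78% of all genes were, 2 members had an unadjusted p under 0.05, and DESeq2 called 0. The first count was 0 without LIF replicate 1 or OSM replicate 1, 1 without LIF replicate 2 or OSM replicate 2, and 5 in a fit of these 2 groups alone. The second was 0 without OSM replicate 1, 1 without OSM replicate 2 and 4 without control replicate 2.

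The rest of the pathway was read from a list of 81 further genes, of which 72 were tested. With OSM 19 rose and 9 fell, a share of 38.9% beside the 21.4% of all genes, and the median log2 change was 0.11. With LIF 7 rose and 6 fell, 18.1% beside 7.66%, with a median of -0.01. With IL6 edgeR called 0 of 72, where 8 had an unadjusted p under 0.05 and DESeq2 called 0. For some of them, Bmp2 and Bmp4 included, DESeq2 gave no adjusted p with IL6. OSM was higher than LIF for 13 and lower for 3 of the 72, a share of 22.2% beside 8.04% of all genes. Without either OSM replicate the OSM count was 18, and the LIF count was 7 without LIF replicate 1 and 6 without LIF replicate 2. In bulk RNA, more RNA per cell and more cells of a type cannot be told apart, here and for the members above. The myoblast marker Pax7 also rose with OSM, from 45.2 and 45.0 CPM to 61.1 and 57.3 (log2 change 0.39, adjusted p 0.000852), and its part in these results was not tested.

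Genes that process and hold the ligands came first by share of calls for OSM against control, at 62.5%, and textbook targets for LIF against control, at 33.3% beside 25% of these genes. Of all genes, 21.4% were called with OSM and 7.66% with LIF. Of 24 extracellular binders and activators tested, OSM raised 11 and lowered 4. Bmp1, the protease that cuts the myostatin prodomain and procollagen, went from 61.2 ± 3.34 CPM in control to 155.8 ± 4.13 with OSM (SD, n = 2). Its log2 change was 1.35 (SE 0.06, adjusted p 1.38e-08), against 0.44 with LIF (adjusted p 0.00104), and the direct difference was 0.91 (adjusted p 3.18e-06). Furin, the convertase that cleaves the family's precursors, rose from 99.5 ± 2.62 to 185.6 ± 10.1 CPM with OSM (0.90, adjusted p 2.84e-07) and by 0.34 with LIF (adjusted p 0.00436, and 0.0850 without LIF replicate 2).

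The binding proteins followed in the same list. Fstl1 rose with OSM by 0.66 (adjusted p 9.47e-06) and Fstl3, which like follistatin binds activin and myostatin, by 0.77 (adjusted p 0.00497, and 0.0862 without OSM replicate 2), while their LIF changes of 0.09 and 0.42 were not called. Fstl3 had 3.88 and 4.37 CPM in control, 5.75 and 5.26 with LIF, and 6.05 and 8.05 with OSM, so its LIF libraries also lay above control. A call with OSM and none with LIF does not show that the cytokines differ. In M21, 47.3% of the Fstl3 exon bases overlap Prss57 on the opposite strand. Of the proteins that store latent TGF-beta, Ltbp3 rose by 0.40 (adjusted p 0.000310), Ltbp1 by 0.38 (adjusted p 0.00969) and Lrrc32, the membrane anchor for it, by 0.88 (adjusted p 0.00177). OSM exceeded LIF for each of these 3, with adjusted p of 0.000402, 0.0232 and 0.00235. These differences from LIF were called in 13, 9 and 12 of 13 alternatives, with adjusted p up to 0.179 for Ltbp1 and 0.0667 for Lrrc32. The call of Ltbp1 against control was lost without control replicate 1 (adjusted p 0.0694) and without OSM replicate 1 (0.0737) or 2 (0.0590).

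The 4 binders that OSM lowered included Thbs1, an activator of latent TGF-beta, which changed by -0.54 with OSM (adjusted p 0.00190) and -0.60 with LIF (adjusted p 0.00311). The matrix genes Bgn and Fbn2 changed by -0.64 (adjusted p 0.000826) and -1.37 (adjusted p 0.000108) with OSM, and by -0.39 (adjusted p 0.0362) and -0.81 (adjusted p 0.0104) with LIF. Ltbp4, beyond the 24 genes named by rule and added after its values were seen, was the other (-0.31, adjusted p 0.0275, called in 8 of 13 alternatives, up to 0.173). The LIF call of Fbn2 was lost without LIF replicate 2 (adjusted p 0.166), and that of Bgn in 6 of the 8 fits without 1 library, with adjusted p up to 0.266. The BMP antagonist gene Nog rose with LIF by 0.59 (adjusted p 0.00371) and with OSM by 0.39 (adjusted p 0.0181). The Nog call with OSM was lost without control replicate 2 (adjusted p 0.1) and OSM replicate 1 (0.149), and that with LIF without LIF replicate 1 (0.0678).

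Among other ligands, 6 of 9 were tested, and OSM raised 1 and lowered 2, a share of 50% beside 21.4% of all genes. Inhbb, the beta B subunit of activin B, had 13.2 and 15.3 CPM in control, 11.8 and 15.3 with IL6, 16.9 and 16.3 with LIF, and 37.2 and 36.0 with OSM. The OSM libraries were far above the other 6. The log2 change with OSM was 1.36 (SE 0.12, adjusted p 1.91e-06). LIF gave 0.22 (adjusted p 0.340), and the level with OSM was 1.14 above that with LIF (adjusted p 3.82e-05). Gdf15, a distant family member released by stressed cells, changed by -1.22 with OSM (adjusted p 0.000399) and Bmp6 by -1.51 (adjusted p 0.0103). Bmp6 was low, with 36 and 47 counts in control and 13 and 16 with OSM. With LIF, Gdf15 changed by -0.55 (adjusted p 0.071) and Bmp6 by -0.43 (adjusted p 0.521), and neither was called. The Bmp6 call was lost without control replicate 2 (adjusted p 0.0621), OSM replicate 1 (0.105) or OSM replicate 2 (0.0579).

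Among 10 tested receptors, Tgfbr2 and Tgfbr1, the pair that binds TGF-beta, rose with OSM and with LIF. The share called was 20% with each cytokine, where 21.4% of all genes were called with OSM and 7.66% with LIF. Tgfbr2 had 51.6 and 51.8 CPM in control, 58.6 and 52.7 with IL6, 83.8 and 81.8 with LIF, and 107.8 and 100.1 with OSM. Its levels were ordered control, IL6, LIF, OSM, and only the first pair of neighbours did not differ in the test. The log2 change was 1.01 with OSM (SE 0.07, adjusted p 3.14e-07) and 0.68 with LIF (SE 0.07, adjusted p 7.82e-05). The OSM level was 0.33 above the LIF level (adjusted p 0.00863, called in 10 of 13 alternatives). Tgfbr1 rose by 0.41 with OSM (adjusted p 0.00121) and 0.30 with LIF (adjusted p 0.0221), the LIF call being lost without control replicate 1 (0.131) or LIF replicate 1 (0.186) or 2 (0.137). No other receptor of the list was called with either cytokine. These include the type I activin receptor Acvr1b, named outside the rule (0.09 with OSM, adjusted p 0.392). Bmpr2, also outside the rule and added after its values were seen, came nearest to a call. It changed by 0.17 with OSM (adjusted p 0.0533) and 0.18 with LIF (adjusted p 0.0773), and the libraries of both lay above control.

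None of the other 7 SMAD genes was called with OSM, LIF or IL6 in edgeR or DESeq2. At an unadjusted p under 0.05 there were 1, 1 and 0. In edgeR, 21.4%, 7.66% and 0% of all genes were called with these cytokines, so 0 calls among 7 genes says little. The OSM median over the 7 SMAD genes was -0.10. The list named intracellular inhibitors includes the decoy receptor gene Bambi. Of that list 10% was called with OSM, beside 21.4% of all genes. Of 10 intracellular inhibitors, 1 was called with OSM, Bambi, a decoy receptor gene beyond the 24 named by rule and added after its values were seen (-0.56, adjusted p 0.0310, called in 5 of 13 alternatives, up to 0.154). The SMAD corepressor Skil, named outside the rule, changed by -0.003 with OSM (adjusted p 0.983).

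Of 15 tested textbook targets of the pathway, OSM raised 5 and lowered 2, while LIF raised 2 and lowered 3. The shares called were 46.7% with OSM and 33.3% with LIF, beside 21.4% and 7.66% of all genes. Id2 rose by 1.01 with OSM (adjusted p 0.000373) and 0.55 with LIF (adjusted p 0.0314, lost in 4 of the 8 fits without 1 library, up to 0.213). Ccn1, a matricellular gene, moved in opposite directions, by 0.76 with OSM (adjusted p 0.000423) and -0.43 with LIF (adjusted p 0.0361), with a direct difference of 1.19 (adjusted p 5.25e-05). Ccn2, a close relative added after its values were seen, fell with LIF by 1.14 (adjusted p 0.0101, called in 12 of 13 alternatives, up to 0.128) and was not called with OSM (0.34, adjusted p 0.302). The LIF call of Ccn1 was lost in 5 of the 8 fits without 1 library, with adjusted p up to 0.233. Among the smooth muscle and mesenchymal targets, Snai1 (0.46) and Acta2 (0.31) rose with OSM, and Snai2 (-0.42) and Tagln (-0.59) fell. Tagln also fell with LIF (-0.56, adjusted p 0.0392), a call lost in 4 of the 8 fits without 1 library. Each of these 4 OSM changes was called at an adjusted p between 0.0138 and 0.0233, and each call was lost in 2 or 3 of the 8 fits without 1 library. In M21, 67.9% of the Tagln and 23.2% of the Ccn2 exon bases overlap other genes on the opposite strand. Ccn2 was also low, with 149 and 143 counts in control and 57 and 77 with LIF.

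**Figure D4:**
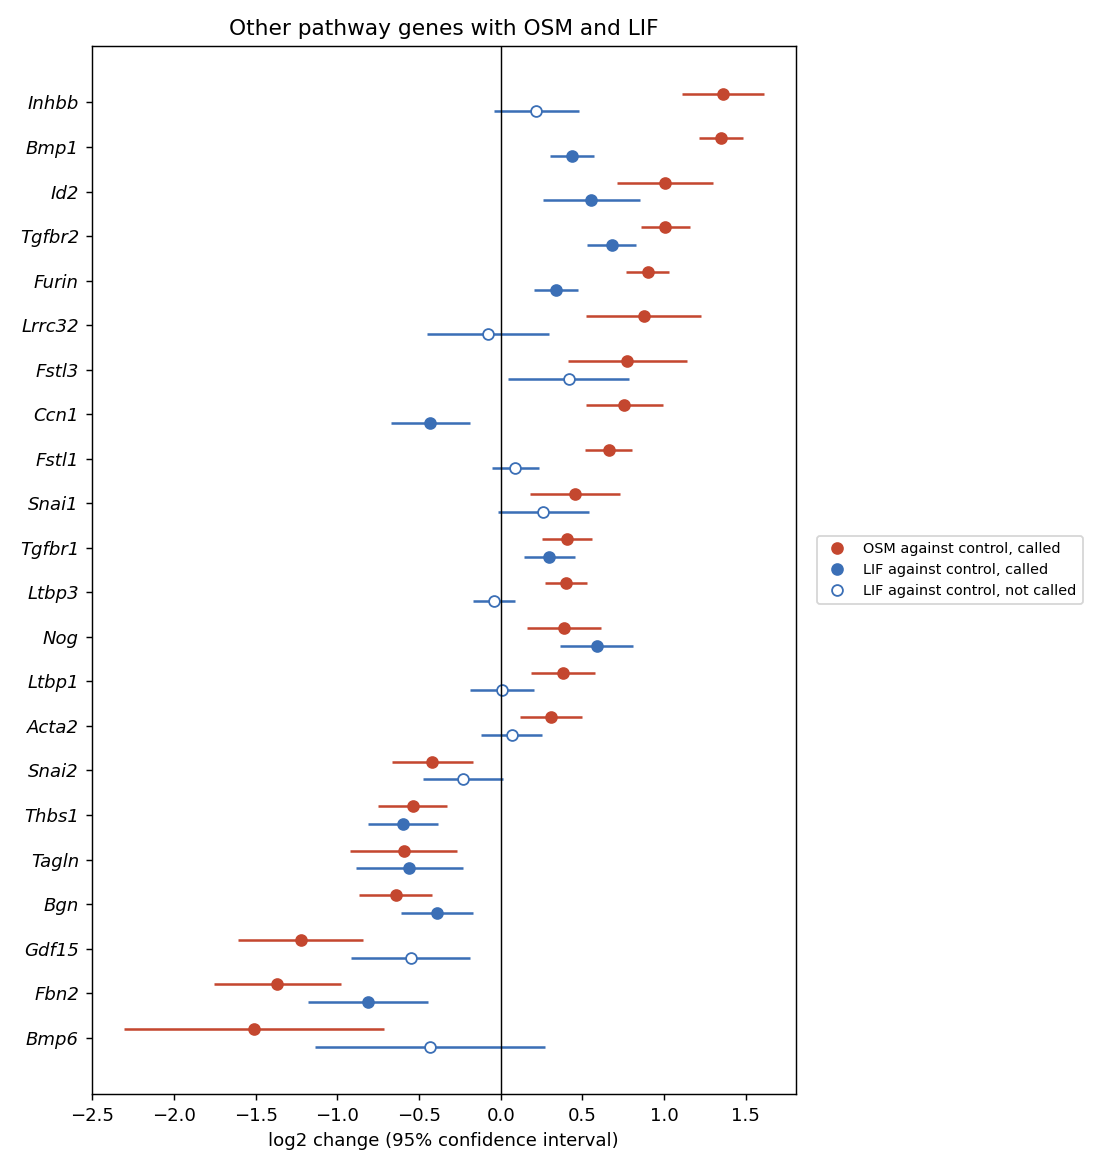
Log2 change against control with OSM and LIF (points) of the 22 named pathway genes outside the 10 members, with 95% confidence intervals; filled points were called. Inhbb and Bmp1 have the largest OSM rises shown (1.36 and 1.35), Ccn1 lies right of 0 with OSM and left of it with LIF, and Bmp6, Fbn2 and Gdf15 have the largest falls.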

How the data were processed

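RNA was sequenced from 8 libraries of mouse primary myotubes in 4 groups of 2. The deposited values are raw counts per gene; the submitters' processing notes name Trim Galore 0.6.5, STAR 2.7.3a, HTSeq 0.11.1, DESeq2 1.34.0 and the builds GRCm39 and mm39. The strand setting and annotation release are not given in the sources used here. Unassigned reads, 11.7% to 12.7% of those recorded, stayed out of library sizes and tests. Symbols, exon lengths and overlaps came from GENCODE M21, which covered the 10 members. It annotates GRCm38, another build, and promoter coordinates refer to that build.

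Counts were tested with edgeR 4.0.16 in R 4.3.3 (filterByExpr with a minimum count of 10, TMM, robust quasi-likelihood fit with a mean per group over all 8 libraries, F test, Benjamini-Hochberg adjustment within each contrast). Intervals are 95% from the fit's SE. Alternatives were DESeq2 1.42.0, RLE size factors, no filter, 2-group fits, the replicate number as a block, and leaving out each library. A fit without 1 library assumes that the remaining one of that group varies like the other groups. Members and lists were chosen with earlier results of these data known. Pathway genes were named if called with OSM or LIF, limited to the 24 of 29 with the smallest p with OSM, of which 2 are counted in their lists but not reported here by name; the 5 genes most like the member with the smallest p with OSM were also named. Ltbp4, Bambi, Ccn2, Skil, Acvr1b and Bmpr2 were named outside the rule for pathway genes. A comparison of the members' proteins was not run.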

Additional observations from a re-analysis of the deposited data

How the results depend on the processing

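With 1 library left out at a time, which leaves 1 library in a group, genes called ranged from 1622 to 4067 for OSM against control, 316 to 1688 for LIF, 0 to 221 for IL6, 437 to 1764 for OSM against LIF, 1105 to 2713 for OSM against IL6 and 82 to 739 for LIF against IL6. Members called ranged from 1 to 5, 0 to 2, 0 to 0, 0 to 4, 0 to 4 and 0 to 1 in the same order, and other pathway genes from 18 to 34, 6 to 19, 0 to 6, 9 to 22, 15 to 28 and 1 to 15. With IL6, DESeq2 called 19 genes, the fit without a filter 97 genes and 3 pathway genes, and the replicate block 9 genes. A fit of OSM and LIF alone called 2928 genes, 5 members and 28 pathway genes. For LIF against IL6 the fit without a filter called 985 genes, 1 member and 14 pathway genes, and the replicate block 826 genes and 1 member. RLE size factors changed no call of a member.

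Some member changes that were not called turned sign when 1 library was left out. Against control with OSM they ranged from -0.19 to 0.32 for Mstn, -0.070 to 0.027 for Tgfb2 and -0.080 to 0.33 for Fst. With LIF they ranged from -0.10 to 0.33 for Gdf11, -0.14 to 0.19 for Acvr2b and -0.13 to 0.27 for Fst, and among pathway genes from -0.041 to 0.064 for Ltbp1, -0.26 to 0.087 for Lrrc32 and -0.070 to 0.22 for Acta2. With IL6 they ranged from -0.15 to 0.35 for Mstn, -0.072 to 0.36 for Gdf11, -0.18 to 0.68 for Inhba, -0.12 to 0.011 for Tgfb1, -0.032 to 0.093 for Tgfb2, -0.16 to 0.17 for Acvr2b and -0.48 to 0.18 for Fst. OSM against LIF gave -0.024 to 0.013 for Tgfb3. OSM against IL6 gave -0.14 to 0.068 for Mstn, -0.11 to 0.0063 for Tgfb2 and -0.072 to 0.58 for Fst. LIF against IL6 gave -0.0091 to 0.36 for Mstn, -0.12 to 0.051 for Tgfb1, -0.084 to 0.12 for Acvr2b, -0.13 to 0.53 for Fst and -0.051 to 0.14 for Smad7. The cause was not tested.

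The replicate numbers are not said to pair libraries, and differences between replicates 1 and 2 correlated at 0.00708 to 0.181 between groups. With the replicate block the OSM call of Acvr2b was gained (adjusted p 0.0220) and the OSM calls of Inhba, Tgfb1, Acvr2a and Smad7 had adjusted p of 0.0125, 0.0108, 0.00182 and 2.45e-05. At 57 to 132 counts, Inhba is the member most limited by depth, and intervals cover only the spread between these libraries.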
